A study of Mus musculus with 2 samples.

Results

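The 10 genes described here encode the proteins that build and decorate extracellular microfibrils. They are the fibrillins Fbn1 and Fbn2, the microfibril-associated proteins Mfap2, Mfap4 and Mfap5, the latent TGF-beta binding proteins Ltbp1, Ltbp2, Ltbp3 and Ltbp4, and the elastic fibre glycoprotein Emilin1. They were chosen by name as members of one structural family and its partners, and all 10 were found among the 33640 gene symbols of the deposited table. RNA was sequenced from mitral valves of wild-type mice and of mice with 1 copy of the missense allele C1039G of Fbn1, a mouse model of Marfan syndrome. All mice were 5 months old and untreated as far as the labels say. Tissue from 8 hearts of each genotype, male and female together, was pooled into 1 RNA sample, so that each genotype is 1 library. There is therefore no replicate, no error on any value and no test, and every difference given is one between these 2 libraries. The mutant mice also carry 1 wild-type copy of Fbn1, and the table does not separate transcripts of the mutant and the wild-type copy.

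Fibrillins polymerise into microfibrils, the thin filaments that surround elastin and anchor cells in stretched tissues such as heart valves and arteries. Latent TGF-beta binding proteins resemble fibrillins in their domains, attach to microfibrils and hold TGF-beta in an inactive complex, and the microfibril-associated proteins bind fibrillins along the filament. Loss of normal fibrillin-1 in Marfan syndrome is accompanied by thickened, prolapsing mitral valves, and TGF-beta signalling has been studied in that setting.

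The site that defines the genotypes is shown first, because the comparison rests on it. In the reference transcript of Fbn1 (GENCODE release M21, mm10, ENSMUST00000028633.12) codon 1039 reads as serine, and the nearby cysteine codon lies at position 1041, counted from the start codon. Later nomenclature for this allele places its cysteine at codon 1041, as background. The exon that holds it is exon 26 of 66, and its 41 whole codons, 1031 to 1071, are printed with the cysteine codon 1041 in capitals.
Fbn1 exon 26, wild-type reference, chr2:125363863-125363985, minus strand: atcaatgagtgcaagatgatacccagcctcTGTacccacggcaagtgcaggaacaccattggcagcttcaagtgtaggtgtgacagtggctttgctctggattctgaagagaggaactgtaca
The codon itself occupies bases 125363953 to 125363955 of chromosome 2. This stretch encodes part of the calcium-binding EGF-like repeats of fibrillin-1, which are held in shape by pairs of cysteines, and 6 of its 41 codons are cysteine codons.

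Values are TPM (a count of transcripts scaled to a common total), which corrects for the length of each transcript and for the size of the library, so that levels can be compared between genes on a per-length scale. Differences are log2(TPM + 1) in the mutant pool minus the same in the wild-type pool, a scale that understates differences of low genes. TPM retains no sequencing depth, so the depth behind each value is unknown. Most genes had slightly more TPM in the mutant pool, with a median difference of 0.14 over 17004 genes averaging at least 1 TPM and 64.9% of them higher. Where a pair of values follows without labels, the wild-type pool comes first. Genes of valve fibroblasts, the cells expected to make these proteins, were abundant in both pools, with all 10 markers above 0, among them Dcn (11409 TPM in wild-type and 9304 TPM in mutant valves) and Postn (1269 and 2263 TPM). Markers of cardiac muscle such as Tnnt2 (744 and 506 TPM) were present as well. In bulk RNA of this kind, fewer cells of a type and less RNA per cell cannot be told apart.

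All 10 genes averaged at least 1 TPM, and they spanned levels from 2.08 TPM for Fbn2 to 955 TPM for Mfap4 as the mean of both pools. The pattern in the mutant pool was uneven. Mfap4 and Mfap2 were lower by nearly the same proportion, while the other 8 genes stayed within a narrow band, with differences from −0.07 for Ltbp3 to 0.27 for Mfap5. Of the 10, 5 were higher by any amount, against 64.9% of all genes, and 5 lower, against 35.1%, and the median difference was 0.05. At least 1.5-fold lower were 2 of the 10 genes, against 4.73% of all 17004 genes, and at least 1.5-fold higher were 0 of the 10, against 15.4%. At a 2-fold limit the counts were 0 lower and 0 higher, against 1.72% and 4.81% of all genes. The split of all genes at 1.5-fold was 2613 higher and 805 lower, which became 1832 and 1126 with differences centred on the median, and 1503 and 1409 under quantile normalization.

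**Figure D1:**
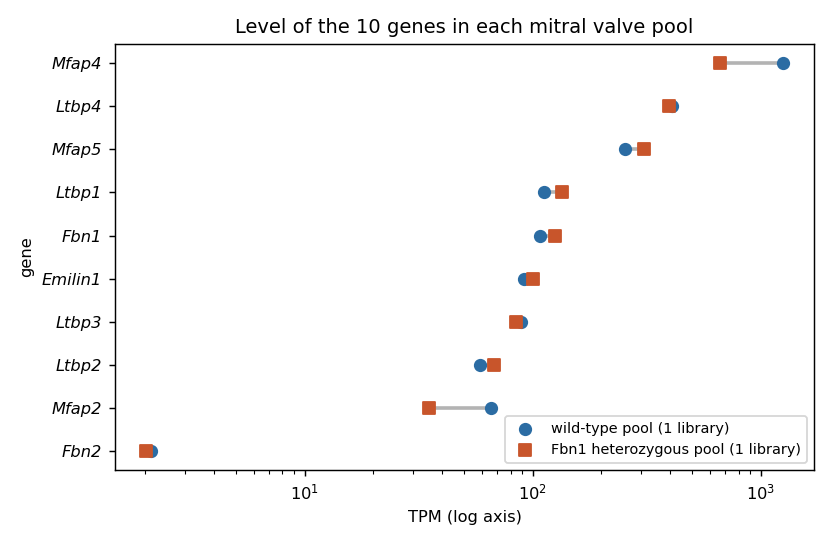
TPM of each of the 10 genes in the wild-type pool (circles) and the Fbn1 heterozygous pool (squares), on a log axis, with genes ordered by their mean; each point is 1 library of 8 pooled hearts. Mfap4 moves from 1248 to 661 TPM and Mfap2 from 65.6 to 35.2 TPM, while the other 8 genes differ by less than 1.5-fold between the pools.

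The summed TPM of the 10 genes was 2438 in wild-type and 1917 in mutant valves. Mfap4 alone made up 51.2% of the sum in wild-type and 34.5% in mutant valves. Without Mfap4 the sum was 1190 and 1256 TPM.

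**Figure D2:**
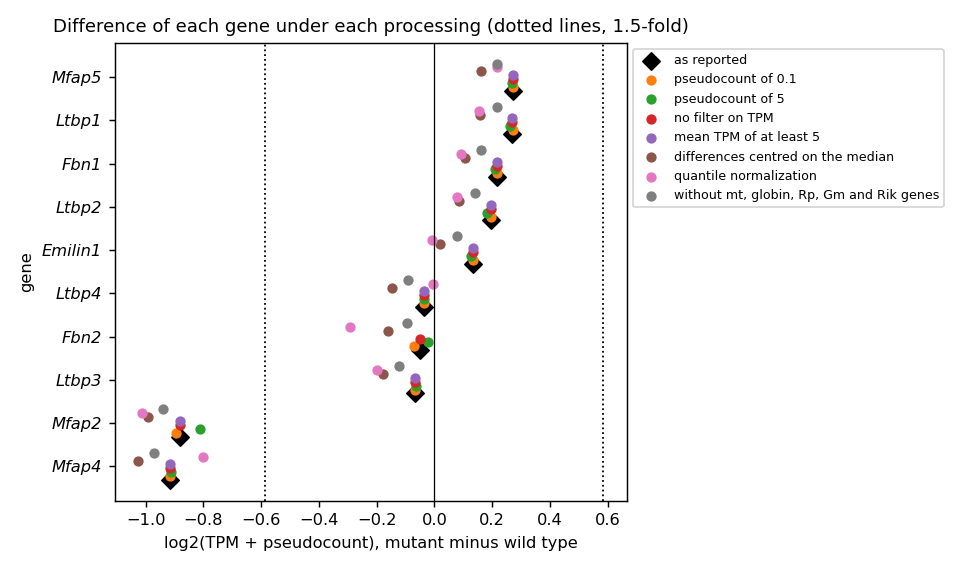
Mutant minus wild-type difference of each of the 10 genes on the log2 scale as reported (black diamonds) and under 7 other ways of processing (coloured circles), with dotted lines at 1.5-fold. Mfap4 (−1.03 to −0.80) and Mfap2 (−1.01 to −0.81) stay below the lower line under each, and Emilin1 crosses 0 under quantile normalization.

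Among the fibrillins, Fbn1 encodes fibrillin-1, the main structural protein of microfibrils in adult tissue (chromosome 2, 125300594 to 125507993, minus strand, ENSMUSG00000027204.13). It was at 108 TPM in wild-type and 126 TPM in mutant valves, a difference of 0.22. The mutant pool was thus the higher one, by 1.16-fold in TPM, and 35.4% of genes of like abundance were as high or higher. The allele changes an amino acid, and the level of Fbn1 mRNA is therefore no check of which pool is the mutant. Fbn2 encodes fibrillin-2, which is made mostly before birth (chromosome 18, 58008623 to 58210487, minus strand). It was at 2.13 TPM in wild-type and 2.03 TPM in mutant valves, a difference of −0.05, so both pools had nearly the same low level. The ratio of Fbn2 to Fbn1 was 0.0197 in wild-type and 0.0161 in mutant valves, so fibrillin transcripts were almost entirely Fbn1 in both.

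The microfibril-associated proteins held the 2 genes that differed by more than 1.5-fold and 1 that did not. Mfap4 encodes a fibrinogen-related glycoprotein that binds fibrillin-1 and elastin (chromosome 11, 61485431 to 61488900, plus strand, ENSMUSG00000042436.12). It was at 1248 TPM in wild-type and 661 TPM in mutant valves, a difference of −0.92 or 1.89-fold less TPM. It ranked 70th in abundance among all genes in wild-type and 139th in mutant valves. The 159 other genes with a mean TPM between 0.5 and 2 times that of Mfap4 had a median difference of −0.20, against 0.14 over all genes. Of these 159, 2 were as low or lower than Mfap4 in the mutant pool (1.26%). These were Chad, a cartilage matrix protein, and the globin gene Hba-a2, both named after their values were seen.

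Mfap2 encodes MAGP-1, a small protein that binds fibrillins and also TGF-beta family ligands (chromosome 4, 141010418 to 141015984, plus strand, ENSMUSG00000060572.17). It was at 65.6 TPM in wild-type and 35.2 TPM in mutant valves, a difference of −0.88 or 1.86-fold less TPM. The wild-type pool was again the higher one. Among the 4670 other genes of like abundance, 28 were as low or lower (0.600%). The ratio of Mfap4 to Mfap2 was 19.0 in wild-type and 18.8 in mutant valves, so that both genes stood lower in the same proportion.

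Mfap5 encodes MAGP-2, the close relative of MAGP-1 (chromosome 6, 122505845 to 122529290, plus strand, ENSMUSG00000030116.14). It was at 254 TPM in wild-type and 307 TPM in mutant valves, a difference of 0.27. The direction was opposite to that of Mfap2, and the ratio of Mfap5 to Mfap2 was 3.88 in wild-type and 8.73 in mutant valves, 2.25-fold larger. Among like genes 25.9% were as high or higher. Of the summed TPM of Mfap2, Mfap4 and Mfap5, Mfap5 held 16.2% in wild-type and 30.6% in mutant valves, while Mfap4 held 79.6% and 65.9%. Set against Fbn1 in the same pool, Mfap4 had 11.6 times its TPM in wild-type and 5.27 times in the mutant pool, and Mfap2 had 0.608 and 0.280 times. Mfap5 had 2.36 and 2.45 times the TPM of Fbn1, nearly the same in both. These ratios do not depend on the library totals.

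**Figure D3:**
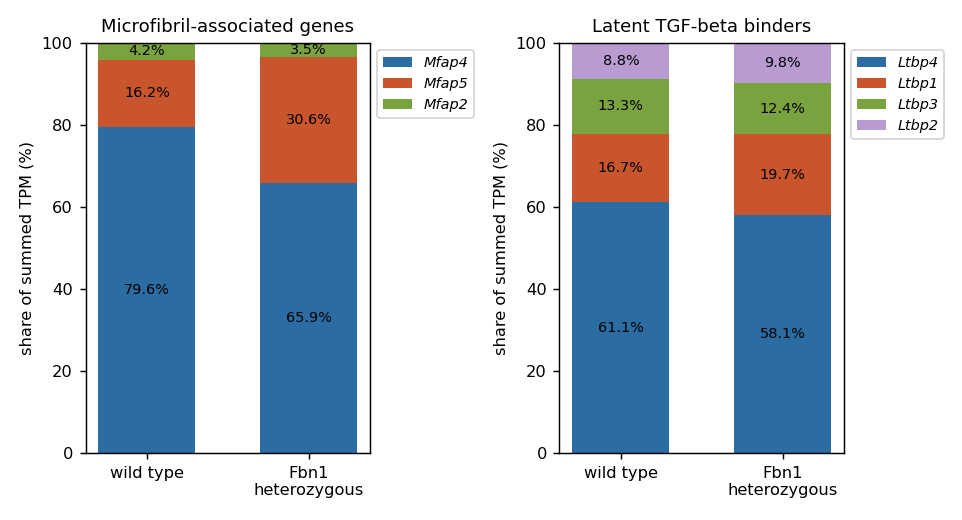
Share of the summed TPM (percent) held by each microfibril-associated gene (left) and each latent TGF-beta binder (right) in the wild-type and the Fbn1 heterozygous pool, 1 library each. The share of Mfap5 goes from 16.2% to 30.6%, and that of Ltbp4 from 61.1% to 58.1%.

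The latent TGF-beta binding proteins had close to the same total in both pools, 668 TPM in wild-type and 685 TPM in mutant valves. Ltbp1, which carries each TGF-beta isoform (chromosome 17, 75005568 to 75392512, plus strand), was at 112 TPM in wild-type and 135 TPM in mutant valves, a difference of 0.27. Ltbp2, which binds fibrillin-1 but not latent TGF-beta (chromosome 12, 84783212 to 84876532, minus strand), was at 58.8 TPM and 67.4 TPM, a difference of 0.19. Both were higher in the mutant pool, by 1.21-fold and 1.15-fold in TPM, close to the 1.16-fold of Fbn1.

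Ltbp3, another carrier of TGF-beta (chromosome 19, 5740904 to 5758532, plus strand), was at 89.1 TPM in wild-type and 84.9 TPM in mutant valves, a difference of −0.07. Ltbp4, which carries TGF-beta1 and is needed for elastic fibre assembly (chromosome 7, 27305136 to 27337692, minus strand), was at 408 TPM and 398 TPM, a difference of −0.04. Both were slightly lower in the mutant pool, and 26.5% and 45.4% of the genes of like abundance to each were as low or lower. Ltbp4 was the most abundant of the 4 in both pools, with 61.1% of their summed TPM in wild-type and 58.1% in the mutant pool. Ltbp1 held 16.7% and 19.7%, Ltbp3 13.3% and 12.4%, and Ltbp2 8.81% and 9.85%, so that the order of the 4 was the same in both pools. With no replicate, how far the neighbours in this order differ beyond their spread is not known.

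Emilin1 encodes an elastin-associated glycoprotein that limits the processing of pro-TGF-beta1 (chromosome 5, 30913402 to 30921277, plus strand, ENSMUSG00000029163.9). It was at 91.9 TPM in wild-type and 101 TPM in mutant valves, a difference of 0.13, which became −0.0071 under quantile normalization. Among genes of like abundance 47.1% were as high or higher. Of its family, Mmrn2, an endothelial matrix protein, was at 21.7 and 19.8 TPM, and Emilin2 at 1.41 and 3.63 TPM. Mmrn1, a multimerin made by lymphatic endothelium and platelets, was at 12.2 and 1.45 TPM, a difference of −2.43. In the lymphatic endothelial markers, 5 of 6 were lower in the mutant pool, against 35.1% of all genes, and Lyve1 was higher (44.7 and 58.8 TPM). Their summed level was 360 and 211 TPM with none at 0, a difference carried by Ccl21a (244 and 94.3 TPM), since the other 5 summed to 117 TPM in each pool. Their part in the value of Mmrn1 was not tested.

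**Figure D4:**
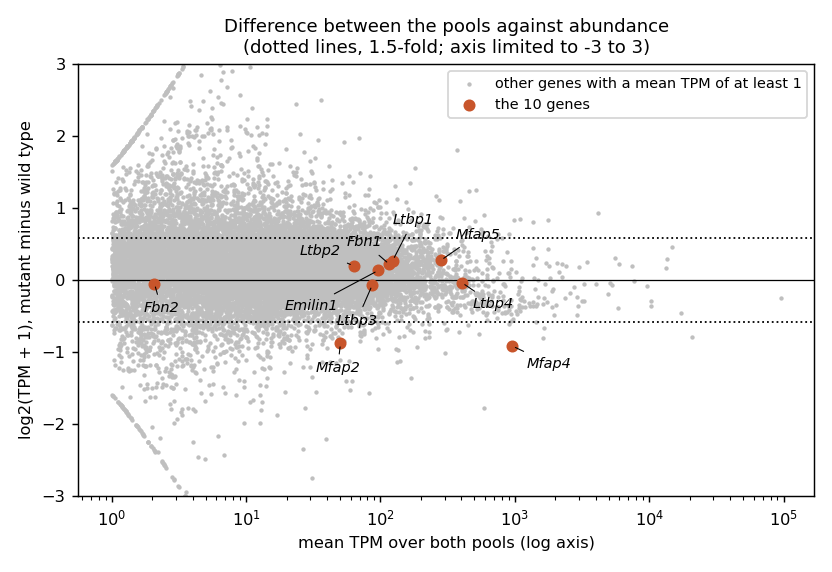
Mutant minus wild-type log2(TPM + 1) against the mean TPM of both pools (log axis) for genes averaging at least 1 TPM (grey) and the 10 genes (orange), with dotted lines at 1.5-fold. Mfap4 (−0.92) and Mfap2 (−0.88) lie below the lower line and the other 8 genes between the lines.

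Features of the transcripts that the choice of genes did not use were compared next. In GENCODE release M21 the 10 genes fall into short and long transcripts. The longest protein-coding transcript has 1073 bases for Mfap2, 1506 for Mfap5 and 1722 for Mfap4, against 3852 for Emilin1, 5190 to 6769 for the LTBP genes and 11041 to 11971 for the fibrillins. Differences between the pools moved with this length across all genes. Among genes averaging at least 10 TPM, of which 9481 of 10145 (93.5%) were matched to a coding transcript, the median difference was −0.12 for transcripts of up to 1000 bases and 0.03 from there to 2000 bases. It was 0.16 for those over 6000 bases. Mfap2 and Mfap4 both fall in the class of 1000 to 2000 bases, whose central 95% of differences lay between −0.64 and 0.90 over 1795 genes, and both lie below it. Of that class 3.18% of genes were at least 1.5-fold lower. Mfap5, in the same class, was at 0.27. Mfap2, at 1073 bases, lies near the edge of the class of up to 1000 bases. The central 95% there was wider, −1.05 to 1.40 over 591 genes, and would hold its −0.88. Of that shorter class 9.14% of genes were at least 1.5-fold lower, so the place of Mfap2 depends on where the classes are cut. Fbn1, Ltbp1 and Ltbp2, at 0.22, 0.27 and 0.19, lay near the median of the longest class.

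The GC content of the transcript moved with the difference as well. The median was 0.14 for genes with up to 45% GC and 0.02 for those over 60%. Mfap2 has 59.6% GC, Mfap4 53.9% and Mfap5 46.4%, while Ltbp3, Ltbp4 and Emilin1 have 61.5%, 62.2% and 61.1%. The part of length or GC content in the values of Mfap2 and Mfap4 was not tested beyond these classes.

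**Figure D5:**
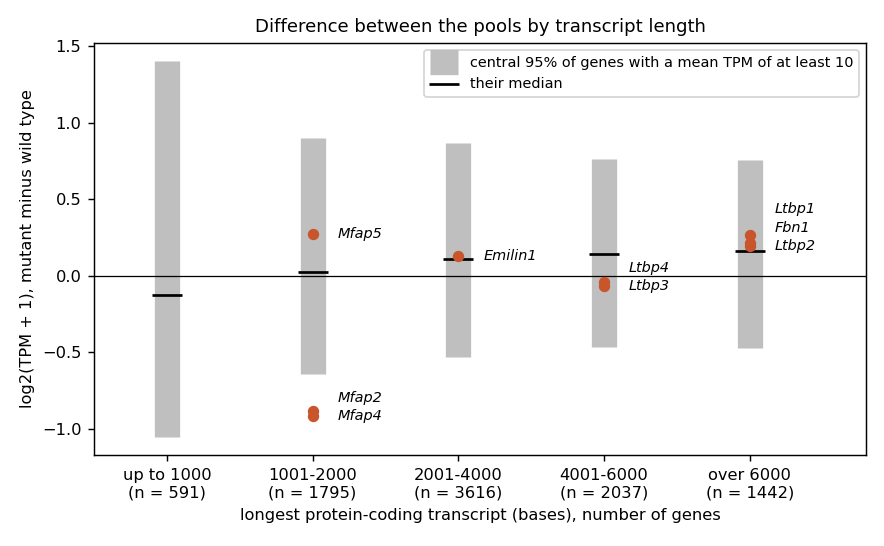
Mutant minus wild-type log2(TPM + 1) by length of the longest protein-coding transcript for genes averaging at least 10 TPM; grey bars are the central 95% of genes, black ticks their median, and orange points the 9 of the 10 genes at this abundance (Fbn2 is below it). Mfap2 and Mfap4 lie under the grey bar of their class, whose lower end is −0.64, and the other 7 genes lie within theirs. Mfap2, at 1073 bases, is near the edge of the shortest class, whose bar reaches down to −1.05.

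Related genes can share reads, so the sequence that the 10 genes have in common was counted. No stretch of 31 bases was shared between the coding transcripts of any 2 of the 10 genes (0 such 31-mers), the fibrillins, the MAGP pair and the LTBP genes included. Mfap2, Mfap5, Ltbp4 and Emilin1 shared none with any other annotated gene. Mfap4 shared 59 of its 1792 31-mers with Mapk7, which overlaps it by 89 bases on the opposite strand and was at 23.1 TPM in wild-type and 20.5 TPM in mutant valves. Fbn1 shared 20.1% of its 31-mers with other genes, nearly all with the predicted gene Gm9913 on the opposite strand (0.377 and 0.706 TPM). Ltbp2 shared 10.7% with the antisense gene D030025P21Rik (0.444 and 1.40 TPM). Whether the counting used strand is not given in the sources used here, so reads of these opposite-strand pairs may not be told apart.

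Promoter windows were taken from RefSeq (GRCm38.p6) for 7 of the 10 genes, with 11 start sites. No window of Fbn2, Mfap4 or Mfap5 is among them. The counts below therefore hold Mfap2 but not Mfap4, the other gene at least 1.5-fold lower. The 250 bases before the upstream start site of Mfap2 are shown, as the promoter of a gene with a lower level, with matches to CAGAC (bound by SMAD proteins) and CCAAT in capitals on either strand.
Mfap2 upstream of the start, chr4:141010174-141010423, plus strand: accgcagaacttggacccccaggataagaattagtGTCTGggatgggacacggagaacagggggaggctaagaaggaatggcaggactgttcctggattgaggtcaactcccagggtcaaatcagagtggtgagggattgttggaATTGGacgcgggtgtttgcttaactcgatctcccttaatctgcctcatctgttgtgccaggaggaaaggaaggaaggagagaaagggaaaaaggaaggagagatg
CAGAC was found in this window 1 time and CCAAT 1 time. The other RefSeq start site of Mfap2, whose window (chromosome 4, 141010431 to 141010680) overlaps the transcript of the first, has 0 of each and 2 GC boxes. On either strand CAGAC occurs in 42.2% and CCAAT in 33.8% of the 32851 promoter windows of this length in the table. Over the 7 genes with windows, CAGAC occurs in 6 of 11 windows and the GC box GGGCGG also in 6, against 32.7% of all windows for the GC box. TATAAA occurs in 0 of 11, against 12.4% of all windows. Some windows of Ltbp4 overlap each other. These are letter matches and not binding sites, and the data hold no measure of binding.

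The ligands that the LTBP proteins carry were at lower summed TPM in the mutant pool, 167 against 143 TPM. Tgfb1 was at 25.8 TPM in wild-type and 33.1 TPM in mutant valves, while Tgfb2 was at 62.3 and 51.4 TPM and Tgfb3 at 79.4 and 58.8 TPM. None of the 3 reached 1.5-fold in either direction. The summed TPM of the carriers Ltbp1, Ltbp3 and Ltbp4 was 3.63 times that of the ligands in wild-type and 4.31 times in mutant valves. Ligand transcripts were thus fewer than carrier transcripts in both pools.

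Genes that activate or anchor latent TGF-beta were higher in the mutant pool in 10 of 11 cases, against 64.9% of all genes. Their median was 0.31 against 0.14. Under quantile normalization, where the median over all genes was −0.01, 9 of 11 were higher. On the log2(TPM + 1) scale 1 of the 11 was at least 1.5-fold higher, a share no larger than the 15.4% of all genes. It was Nrros, which anchors latent TGF-beta on myeloid cells, at 20.3 and 33.1 TPM. Across the ways of processing its difference ran from 0.53 to 0.70, so it did not pass the 1.5-fold limit of 0.585 under each. Thbs1, thrombospondin-1, which can activate latent TGF-beta, was at 399 and 502 TPM, and the integrin gene Itgb1 at 173 and 199.8 TPM. The integrin gene Itgb8, whose dimer releases TGF-beta, was at 12.7 and 19.1 TPM. Its difference of 0.56 lies just inside the limit as reported, and ran from 0.41 to 0.588 across the ways of processing. The 1 lower gene was Lrrc32, the anchor on regulatory T cells and platelets, at 32.2 and 25.7 TPM (named after its value was seen). Of the macrophage markers 5 of 6 were higher in the mutant pool, against 64.9% of all genes, with a summed level of 618 and 690 TPM and none at 0. The count was 4 of 6 with differences centred on the median, under quantile normalization or without the abundant gene classes. Csf1r and C1qa were nearly level, with differences of 0.0088 and −0.03. The part of these cells in the value of Nrros was not tested.

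ADAMTS and ADAMTS-like proteins, several of which bind fibrillin and promote microfibril assembly, were higher in 7 of 10 cases, near the 64.9% of all genes. Their median was 0.28 against 0.14. With differences centred on the median or under quantile normalization 6 of 10 were higher. The median over all genes was 0.03 and −0.01 under these 2 settings. Of the 10, 1 was at least 1.5-fold higher, against 15.4% of all genes, and it was also past 2-fold. It was Adamtsl3, at 32.4 and 75.7 TPM, a difference of 1.20. Adamts10, mutated in Weill-Marchesani syndrome, was at 65.4 and 92.3 TPM, Adamtsl4, mutated in ectopia lentis, at 69.0 and 93.7 TPM, and Adamtsl2, mutated in geleophysic dysplasia, at 82.9 and 76.3 TPM.

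Elastic fibre proteins that are laid on microfibrils were mixed, with 5 of 11 higher, against 64.9% of all genes, and 6 lower, against 35.1%, and a median of −0.27 against 0.14. At least 1.5-fold lower was 1 of the 11, against 4.73% of all genes. It was Fbln1, a fibulin of elastic fibres and basement membranes, at 383 and 239 TPM. The fibulin gene Efemp1 was at 179 and 129 TPM, and Fbln2 at 91.8 and 133 TPM. The ratio of Eln, tropoelastin, to Fbn1 was 0.560 in wild-type and 0.529 in mutant valves, so that transcripts of the 2 genes stood in nearly the same proportion.

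Of the genes that share the microfibril-associated name but are not among the 10, Mfap1a was at 46.5 and 38.9 TPM and Mfap1b at 61.0 and 54.8 TPM. They encode the same splicing factor from near-identical genes, so their values may be divided by an estimate. Of this list 1 of 4 genes was higher, against 64.9% of all genes, and 3 lower, against 35.1%. The median was −0.11 against 0.14. With differences centred on the median, under quantile normalization or with the abundant gene classes removed 0 of 4 were higher. Under these 3 settings the median over all genes was also lower, at 0.03, −0.01 and 0.08. None differed by 1.5-fold.

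Markers of other cells also differed between the pools, and the counts below stand beside 64.9% of all genes higher and 35.1% lower. Cartilage-like markers, which valve cells also express, had a summed level of 1374 TPM in wild-type and 615 TPM in mutant valves, with each of the 3 genes of 6 that averaged at least 1 TPM lower. Chad (919 and 268 TPM) carried most of this, while Comp was at 392 and 288 TPM and Sox9 at 62.3 and 58.0 TPM. Of the defining cartilage genes, Acan was at 1.01 and 0.847 TPM, Col2a1 at 0.0981 and 0.442 TPM, and Matn3 at 0 in both. Valve fibroblast markers had 18899 and 18727 TPM, a sum carried mostly by Dcn (11409 and 9304 TPM). Of the 10, 7 were higher, near the share of all genes. At least 1.5-fold higher were 2, Postn (1269 and 2263 TPM) and Tbx20 (703 and 1253 TPM), against 15.4% of all genes. At least 1.5-fold lower were 0, against 4.73%. With differences centred on the median or under quantile normalization 6 of 10 were higher. Smooth muscle markers had 175 and 191 TPM, with 3 of the 5 genes that averaged at least 1 TPM higher and none at 0, and endothelial markers 607 and 623 TPM, with 2 of 7 higher and none at 0. Cardiac muscle markers had 2076 and 1634 TPM, with 6 of 7 lower and none at 0. Neutrophil markers had 16.0 and 102 TPM, with 4 of the 5 genes that averaged at least 1 TPM higher and Ly6g at 0 in both, and T cell markers 76.0 and 48.1 TPM, with 5 of 6 lower and none at 0. Red blood cell transcripts had 6801 and 687 TPM, with 5 of 5 lower and none at 0. The 4 globins differed by −3.48 to −3.28, and the erythroid gene Alas2, at 27.6 and 23.3 TPM, by −0.23. The part of these cells in the values of Mfap4 and Mfap2 was not tested.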

How the data were processed

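RNA was amplified with the Ovation RNAseq system v2 and made into libraries with the Nextera XT kit, per the labels' protocols. The authors deposited 1 TPM value per gene symbol and library, per the file headers. The submitters' processing notes name Trimmomatic (a read trimmer), HISAT2 (an aligner), kallisto (which estimates transcript abundance) and mm10. For these tools, versions, roles, settings and gene annotation were not given in the sources used here. Both columns sum to nearly the same total, 999964 and 999945. The RNA was amplified and no molecular identifiers are named, so a low TPM may stem from few starting molecules.

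From the deposited TPM, log2(TPM + 1) was subtracted, mutant minus wild type, in Python 3.11.15 with numpy 2.4.6 and pandas 2.3.3. Genes averaging at least 1 TPM were counted at 1.5-fold and 2-fold. With 1 library per genotype, no test was run. The subtraction was tested at the 2-fold limit on simulated data with less spread than the real columns. The 1.5-fold counts were not tested in this way. Like genes are those with a mean TPM between 0.5 and 2 times that of the gene named. The members, lists and limits were chosen with earlier results of these data known. Named genes were the 10 members and, from each list of partners, the 2 most abundant and the 2 with the largest difference among those averaging at least 5 TPM. Emilin2 and Eln were also named, after their values were seen. Coordinates, transcripts and 31-mers come from GENCODE release M21 and promoters from RefSeq. As alternatives, the pseudocount was set to 0.1 or 5, the filter was removed or raised to 5 TPM, differences were centred on the median of genes averaging at least 10 TPM, both columns were quantile normalized, and TPM was rescaled after removal of the abundant gene classes (mitochondrial, globin, ribosomal protein, Gm and Rik symbols).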

Additional observations from a re-analysis of the deposited data

How the results depend on the processing

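No paired analysis was possible because each genotype is 1 library. For the 10 genes, 7 alternatives gave 69 values, since Fbn2 averages under 5 TPM and drops out there. Of these 68 kept their direction and their side of the 1.5-fold limit, and 1, that of Emilin1 under quantile normalization (−0.0071), changed sign near 0. The 2 genes at least 1.5-fold lower were the same under each alternative, with Mfap4 between −1.03 and −0.80 and Mfap2 between −1.01 and −0.81. At the 2-fold limit 1 gene was lower with differences centred on the median (Mfap4) and 1 under quantile normalization (Mfap2), against 0 as reported. The median of the 10 genes, 0.05 as reported, was −0.064 when centred, −0.0068 under quantile normalization and −0.0065 without the abundant gene classes. It was 0.13 with genes under 5 TPM left out, where Fbn2 is not counted. The 3 rescalings lower most differences, since the median over all genes was 0.14 as reported, 0.03 when centred, −0.01 under quantile normalization and 0.08 without those classes. A median was taken as moved when its sign changed or it shifted by more than 0.1. Unknown depth limits Fbn2 most, as the only one of the 10 under 10 TPM, where it ran from −0.29 to −0.02.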
